A study of Homo sapiens with 2 samples.

Results

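A small set of collagen-expressing cells of human inner ear organoids carried transcripts of the matrix-degrading enzymes MMP9 and MMP13. They were picked out by a fixed rule on unique molecular identifiers (UMIs, counted transcript molecules). A member had at least 3 UMIs of COL1A2 plus COL3A1, fewer than 5 of the otic gene OC90, fewer than 3 of the cartilage genes ACAN, CNMD and MATN4 together, and at least 2 of MMP9 plus MMP13. In all, 215 of 31818 kept cells met it, 137 of them in the GelNB-CH library and 78 in the Matrigel library. They are called MMP9/MMP13 cells here. They were set against the MMP-negative cells of the same library, which pass the same collagen, OC90 and cartilage limits and have no UMI of either enzyme, and against all other kept cells of that library with at least 3 COL1A2 UMIs. The second reference is wider and also holds cartilage-like and otic cells.

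MMP9 is a secreted gelatinase and MMP13 a secreted collagenase, and both are held in check by tissue inhibitors such as TIMP1. The plasminogen activator PLAU and its receptor PLAUR belong to a second proteolytic system at the cell surface, and plasmin can activate several metalloprotease precursors. HMOX1 is the inducible enzyme that breaks down haem. Cells that make these enzymes in normal tissue include fibroblasts that remodel matrix, hypertrophic chondrocytes and bone cells, macrophages, osteoclasts and migrating keratinocytes.

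There is 1 library for each of 2 matrices and no replicate: GelNB-CH, a crosslinked gelatin hydrogel, and Matrigel, an extract of basement membrane. Both came from WA25, a human embryonic stem cell line with a nuclear tdTomato reporter at SOX2, differentiated into inner ear organoids and collected on day 40. Both started in 2% growth-factor-reduced Matrigel on day 0, were given 3 µM of the WNT pathway agonist CHIR, were freed with Accutase for 90 min, sorted for the reporter and run with the 10x Genomics 3′ assay. The labels give 1 growth text for the 2 libraries, in which GelNB-CH is the embedding gel on day 11, a 4-arm thiol at 0.1 wt% crosslinks it and oxidized dextran is added at 0.02% on day 15. How the Matrigel library was embedded is not described in the sources used here. The sort keeps only cells with the reporter, so cells without it were not sampled.

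There were 21743 barcodes with 247006223 UMIs for GelNB-CH and 10912 barcodes with 178672097 UMIs for Matrigel. Kept cells, with at least 1000 genes and at most 15% mitochondrial UMIs, numbered 21319 and 10499, with medians of 9265 and 14403 UMIs, and 78 barcode sequences occurred in both libraries. Cells of 1 library are not replicates, so no test was made and no p-value is given. Each 95% interval covers counting error only.

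MMP9/MMP13 cells occurred in both libraries, and how their shares compared depended on the denominator and on depth. They were 0.643% of kept cells in GelNB-CH (137 of 21319, Clopper-Pearson interval 0.540% to 0.759%) and 0.743% in Matrigel (78 of 10499, 0.588% to 0.926%). The working description of the set as found nearly only in GelNB-CH was therefore not borne out by the counts. Among cells that pass the collagen, OC90 and cartilage limits they were 2.80% in GelNB-CH (2.35% to 3.30%) and 2.01% in Matrigel (1.59% to 2.50%). Matrigel cells were sequenced more deeply, and a rule that needs 2 UMIs is met more easily at depth. With each cell thinned to 5000 UMIs the shares of kept cells were 0.429% in GelNB-CH (83 of 19345) and 0.327% in Matrigel (33 of 10077), and 1974 GelNB-CH and 422 Matrigel cells were too shallow for it. The shares of gated cells were then 1.96% (1.57% to 2.43%) for GelNB-CH and 0.977% (0.673% to 1.37%) for Matrigel. The intervals of the 2 libraries are separate in this last measure and overlap in the others.

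MMP9 made up most of the signal that defined the set. In GelNB-CH 112 of 137 members had MMP9 without MMP13, 6 had MMP13 without MMP9 and 19 had both. In Matrigel 70 of 78 members had MMP9 alone, 5 MMP13 alone and 3 both, so most members of either library had MMP9 alone. MMP9 ran from 0 to 95 UMIs per member in GelNB-CH, with a median of 3, and from 0 to 97 in Matrigel, with a median of 3.5. A few cells carried much of the total, since the 10 highest members held 36.1% of the members' MMP9 UMIs in GelNB-CH and 64.3% in Matrigel.

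**Figure D1:**
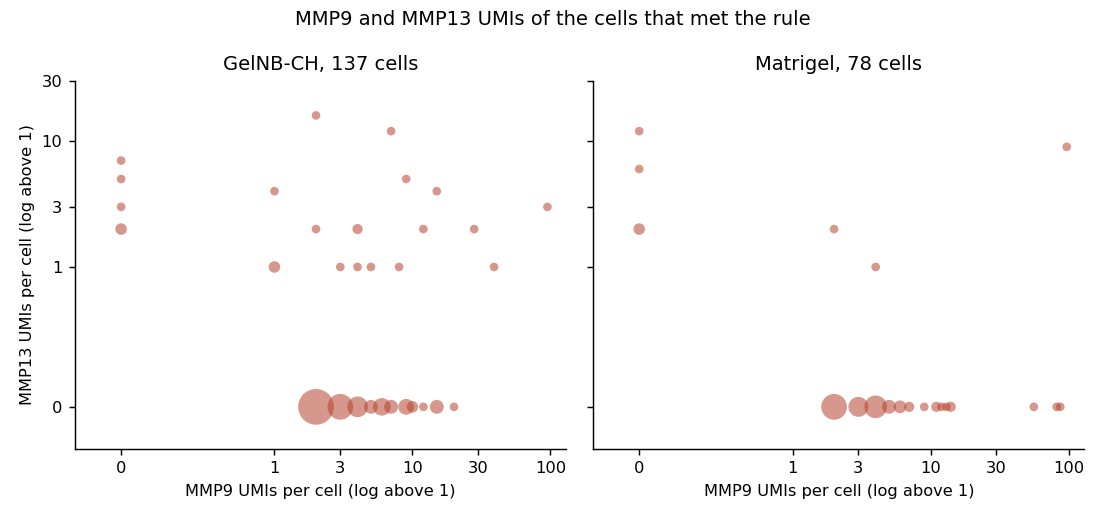
MMP9 UMIs (horizontal) and MMP13 UMIs (vertical) of each member in the GelNB-CH library (left) and the Matrigel library (right), on axes that are linear up to 1 and logarithmic above. A point is 1 pair of values and its area grows with the number of cells that hold it; most of the 137 GelNB-CH and 78 Matrigel members lie on the line of 0 MMP13 UMIs.

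The lower limit of 2 UMIs cuts through a continuous range. Just inside it, 48 GelNB-CH and 24 Matrigel members had exactly 2 UMIs. Just outside it, 179 GelNB-CH and 101 Matrigel cells of the same gates had exactly 1. In otic cells, 0.568% had an MMP9 UMI in GelNB-CH at a median depth of 10706 UMIs, and 0.265% in Matrigel at 16665. Whether these UMIs were free RNA or the cells' own transcripts was not tested. Members had medians of 11554 UMIs in GelNB-CH and 18356 in Matrigel, against 8097 and 13973 in the MMP-negative cells of the same libraries.

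Transcripts of both enzymes were not restricted to the set. Members held 35.4% of all MMP9 UMIs and 13.0% of all MMP13 UMIs of kept GelNB-CH cells, and 48.1% and 26.3% in Matrigel. Of the kept cells with at least 2 MMP UMIs, 261 of 398 in GelNB-CH and 83 of 161 in Matrigel failed a gate. The cartilage limit alone removed 121 and 71 of them. Cells with cartilage transcripts therefore made up a large share of the MMP-positive cells that the rule leaves out.

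MMP9 lies on chromosome 20 (46008908 to 46016561, plus strand) and MMP13 on chromosome 11 (102942995 to 102955734, minus strand) in GENCODE v29 on GRCh38. As the rule used them, their levels are a description. MMP9 stood at 432 CPM (UMIs summed over a set of cells and scaled to a common total) in GelNB-CH members and 8.69 CPM in other COL1A2 cells, and at 391 CPM in Matrigel members and 6.08 CPM in other COL1A2 cells. MMP13 stood at 47.6 and 3.04 CPM in the same GelNB-CH sets and at 22.8 and 0.887 CPM in the Matrigel sets.

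The other 2 markers proposed for these cells, HMOX1 and PLAU, were scarce and did not mark most members. HMOX1 had 12.6 CPM in GelNB-CH members, against 5.16 CPM in MMP-negative and 4.01 CPM in other COL1A2 cells (22 UMIs in 17 of 137 members). The ratio over other COL1A2 cells was 3.14 (1.95 to 4.82). In Matrigel HMOX1 had 3.80 CPM in members, 4.34 CPM in MMP-negative cells and 4.30 CPM in other COL1A2 cells, a ratio of 0.883 (0.322 to 1.94). GelNB-CH cells with OGN and FOXD1 transcripts, another mesenchymal set, had 10.4 CPM of HMOX1. HMOX1 therefore did not set the members apart in Matrigel, and in GelNB-CH its level was near that of another mesenchymal set. PLAU had 6.88 CPM in GelNB-CH members, against 2.10 CPM in MMP-negative cells (12 UMIs in 5 members). It had 10.1 CPM in Matrigel members, against 4.41 CPM in MMP-negative cells (16 UMIs in 10 members). In GelNB-CH the direction of PLAU turned when only cells of 8000 to 16000 UMIs were compared and when cells with keratinocyte, glia or neuron transcripts were left out.

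The mesenchyme label fitted Matrigel members less well than GelNB-CH members. PRRX1, a transcription factor gene of craniofacial and limb mesenchyme, had a UMI in 125 of 137 GelNB-CH members and in 51 of 78 Matrigel members. Among the mesenchyme identity genes, 16 of 19 measured were above other COL1A2 cells in each library, not necessarily the same 16. Of the 19, 3 in GelNB-CH and 1 in Matrigel were at least 2-fold above, against 6.37% and 6.38% of all genes. The median log2 ratios were 0.53 in GelNB-CH and 0.26 in Matrigel. Over MMP-negative cells they were 0.16 and 0.41. In Matrigel, 13 members lay in a cluster with Schwann and satellite glia transcripts, and these 13 members had PRRX1 at 4.75 CPM, from 1 UMI, and COL6A3 at 9.51 CPM, from 2 UMIs, while the glial gene SOX10 was at 214 CPM in them. Another 6 members lay in a second cluster, and SOX10 was at 156 CPM in those members. Cells with at least 10 UMIs of the glia list made up 16.1% of GelNB-CH members and 25.5% of MMP-negative cells, and 46.2% of Matrigel members and 59.8% of MMP-negative cells. Glial transcripts were thus no more frequent in members than in the MMP-negative cells of the same gates.

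Transcripts of otic epithelium went the other way. Cells with at least 10 UMIs of that list, which holds SPP1 and the rule's own gene OC90, made up 12.4% of GelNB-CH members (7.40% to 19.1%) and 2.01% of MMP-negative cells, and 21.8% of Matrigel members (13.2% to 32.6%) and 9.97% of MMP-negative cells. Of its 11 genes other than OC90, 5 were at least 2-fold above and none 2-fold below MMP-negative cells in GelNB-CH, and 4 above and 2 below in Matrigel. Over all genes with a CPM of at least 1, 7.06% were that much higher and 11.7% that much lower in GelNB-CH, and 7.24% and 11.9% in Matrigel. Against other COL1A2 cells, which include otic cells, 3 of the 11 were above and 4 below in each library. Over all genes 6.37% were above and 13.3% below by that measure in GelNB-CH, and 6.38% and 12.1% in Matrigel. Cells with at least 10 UMIs of the neuron list made up 12.4% of GelNB-CH members and 10.3% of MMP-negative cells, and 30.8% of Matrigel members (20.8% to 42.2%) and 12.3% of MMP-negative cells. The summed level of the neuron list was nonetheless 381 CPM in GelNB-CH members and 533 CPM in MMP-negative cells, and 501 and 506 CPM in Matrigel. Members were also deeper than MMP-negative cells. The part of depth and of glial, otic and neuronal transcripts in the results was not tested.

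The defining leukocyte, osteoclast and endothelial genes named here were at or near 0, while single genes of the macrophage and endothelium lists were not. The leukocyte gene PTPRC had 1 UMI in the GelNB-CH members and 2 in the Matrigel members. The osteoclast genes ACP5, OSCAR and DCSTAMP had 2, 0 and 0 UMIs in GelNB-CH members and 2, 1 and 1 in Matrigel members. Of the 14 genes of the macrophage list 3 passed a CPM of 1 in GelNB-CH and 4 in Matrigel. Of these, 2 and 3 were at least 2-fold above MMP-negative cells, against 7.06% and 7.24% of all genes. AIF1, a macrophage gene, had 45.9 CPM in GelNB-CH members and 34.7 CPM in MMP-negative cells, and 71.5 CPM in Matrigel members, where its ratio over MMP-negative cells was 2.47 (2.02 to 2.99). No GelNB-CH member and 2 of 78 Matrigel members had at least 10 UMIs of that list, against 1 of 4584 and 13 of 3702 MMP-negative cells. Of the 9 endothelium genes, PECAM1, CDH5, TEK and CLDN5 had no UMI in members of either library. In GelNB-CH 3 of the 4 measured were at least 2-fold above other COL1A2 cells, against 6.37% of all genes. The median log2 ratio of the 4 was 0.91. In Matrigel 1 of 3 was 2-fold above, against 6.38% of all genes, with a median of 0.86. The list summed to 129 CPM in GelNB-CH members and 118 CPM in MMP-negative cells, and to 88.0 and 65.0 CPM in Matrigel. Most of that sum was ERG, with 115 CPM in GelNB-CH members and 74.1 CPM in Matrigel members. KDR had 3 UMIs in GelNB-CH members and 4 in Matrigel members. The part of such cells in the results was not tested.

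Counts of genes that differed describe the members further. The rule's own genes were not left out of these counts, so MMP9 and MMP13 are among the higher genes of both libraries by selection. Genes that the rule held low can likewise be among the lower ones. In GelNB-CH, 198 genes were at least 2-fold higher in members than in other COL1A2 cells, 1.93% of 10241 genes that reached 10 CPM in at least 1 of the sets, and 554 (5.41%) were at least 2-fold lower. Against MMP-negative cells 220 genes (2.17%) were higher and 438 (4.32%) lower, and 160 genes were higher and 303 lower than both references. In Matrigel 198 genes (1.89%) were higher and 451 (4.31%) lower than in other COL1A2 cells, and 253 (2.43%) and 462 (4.43%) than in MMP-negative cells. The higher genes overlapped between the libraries by 81, which is 40.9% of the list of either library. With sums over as few as 78 cells, a gene can pass 2-fold through 1 cell, and the number of cells behind a gene is given below where few cells carry it.

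TIMP1, the secreted inhibitor that binds MMP9, was found in nearly all members. It had 1202 CPM in GelNB-CH members, 353 CPM in MMP-negative cells and 343 CPM in other COL1A2 cells, and 134 of 137 members had a UMI. In Matrigel it had 796, 300 and 266 CPM in the same sets, with a UMI in 75 of 78 members. The ratios over MMP-negative cells were 3.41 (3.25 to 3.57) for GelNB-CH and 2.65 (2.50 to 2.81) for Matrigel. The share with a TIMP1 UMI after thinning to 5000 UMIs was 88.1% of GelNB-CH members and 68.0% of MMP-negative cells, and 79.5% of Matrigel members and 65.3% of MMP-negative cells. Other inhibitors differed less. TIMP3 had 194 CPM in GelNB-CH members and 183 CPM in MMP-negative cells, TIMP2 had 109 and 102 CPM, and the membrane-bound inhibitor RECK had 20.6 and 30.4 CPM.

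Most other metalloproteases did not go along with MMP9 and MMP13. Of the 11 others measured in GelNB-CH, 3 were at least 2-fold higher in members than in other COL1A2 cells and 1 was at least 2-fold lower. Over all 17423 genes with a CPM of at least 1 in either set, 6.37% were higher and 13.3% lower by that measure. MMP14, the membrane-anchored enzyme that activates MMP2 and MMP13, had 45.3 CPM in GelNB-CH members and 23.5 CPM in MMP-negative cells, and 38.0 and 20.0 CPM in the Matrigel sets. The second gelatinase, MMP2, had 53.3 CPM in GelNB-CH members and 72.1 CPM in MMP-negative cells, and 55.1 and 75.5 CPM in the Matrigel sets. MMP14 was thus above and MMP2 below its level in MMP-negative cells in both libraries. MMP16, a membrane-type enzyme, had 207 CPM in GelNB-CH members and 197 CPM in MMP-negative cells.

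The plasminogen system showed the highest list median outside the keratinocyte list in GelNB-CH. Of 9 genes measured there, 6 were at least 2-fold higher in MMP9/MMP13 cells than in other COL1A2 cells and none was 2-fold lower. Over all genes compared 6.37% were higher and 13.3% lower by that measure. The list's median log2 ratio was 1.11, against -0.09 over all genes compared. PLAUR, the urokinase receptor, had 35.0 CPM in GelNB-CH members and 7.06 CPM in MMP-negative cells (ratio 4.95, 3.70 to 6.54, 32 members with a UMI). In Matrigel it had 38.0 and 7.70 CPM (4.93, 3.70 to 6.47, 25 members). The ratio of PLAUR was thus nearly the same in both libraries. S100A10, which with ANXA2 forms a plasminogen-binding complex, had 1300 CPM in GelNB-CH members and 528 CPM in MMP-negative cells. The difference was smaller in Matrigel, with 915 and 714 CPM, and in Matrigel 3 of 8 genes were 2-fold higher than in other COL1A2 cells, against 6.38% of all 17724 genes compared there.

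S100A2, which encodes a calcium-binding protein of the S100 family, had the largest ratio over other COL1A2 cells (8.38) among the genes named by rule, leaving out the rule's own genes, that had a UMI in over 15 GelNB-CH members. It had 64.2 CPM in GelNB-CH members and 6.90 CPM in MMP-negative cells (9.31, 7.42 to 11.6), with a UMI in 32 members. In Matrigel it had 6.96 and 3.14 CPM, with a UMI in 5 members. The promoter windows of S100A2, which was under 10 CPM in Matrigel and is not among the 81 shared genes, and of PLAUR, which is, are shown because they hold the motif TGANTCA, given in capitals, the sequence that AP-1 dimers are known to bind and which reads the same on both strands. Both were picked with their values known. The windows run from 250 bases before to 50 bases after a RefSeq start on GRCh38.p14. S100A2 lies on the minus strand at chr1:153565795-153566094, the first of its 2 windows, and PLAUR on the minus strand at chr19:43670120-43670419.
S100A2: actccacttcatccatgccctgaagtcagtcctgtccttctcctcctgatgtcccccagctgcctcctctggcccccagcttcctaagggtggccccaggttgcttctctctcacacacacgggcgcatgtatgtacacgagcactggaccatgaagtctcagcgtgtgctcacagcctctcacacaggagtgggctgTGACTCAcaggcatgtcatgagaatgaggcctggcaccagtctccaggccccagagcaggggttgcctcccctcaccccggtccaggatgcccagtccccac
PLAUR: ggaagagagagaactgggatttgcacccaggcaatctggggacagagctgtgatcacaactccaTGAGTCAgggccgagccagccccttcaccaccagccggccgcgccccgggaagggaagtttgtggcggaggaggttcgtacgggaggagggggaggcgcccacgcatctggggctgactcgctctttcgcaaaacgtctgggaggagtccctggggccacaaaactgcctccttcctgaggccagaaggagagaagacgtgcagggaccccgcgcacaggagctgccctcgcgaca
The motif begins 52 bases before the start of S100A2 and 186 bases before that of PLAUR. It occurred in 9 of the 79 windows that RefSeq gives for 50 of the 81 genes (11.4%), and in 7.71% of all 35116 windows. The TIMP1 window holds none. A match describes letters only.

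AP-1 genes differed in both directions. FOSL1, the Fos family member FRA-1, had 9.75 CPM in GelNB-CH members and 0.777 CPM in MMP-negative cells, and 8.86 and 0.913 CPM in Matrigel. These rest on 17 UMIs in 9 GelNB-CH members and 14 UMIs in 6 Matrigel members. FOS, by contrast, had 282 CPM in GelNB-CH members and 427 CPM in MMP-negative cells, and JUN had 174 and 226 CPM. FOSL1 was therefore higher and FOS and JUN lower in GelNB-CH members, and the list of AP-1 subunits and related genes had a median log2 ratio of -0.15 over other COL1A2 cells and 0.06 over MMP-negative cells.

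Interstitial matrix genes divided, with 3 of 21 at least 2-fold above and 3 at least 2-fold below other COL1A2 cells in GelNB-CH, and 4 and 2 in Matrigel. Over all genes 6.37% were above and 13.3% below in GelNB-CH, and 6.38% and 12.1% in Matrigel, so the number below is near the share over all genes. FN1, fibronectin, had 739 CPM in GelNB-CH members and 300 CPM in MMP-negative cells, and 613 and 410 CPM in Matrigel. COL6A3, a collagen VI chain, had 280 and 102 CPM in GelNB-CH and 149 and 55.8 CPM in Matrigel, in 94 and 46 members. FAP, a surface protease of activated fibroblasts, had 94.6 and 32.7 CPM in GelNB-CH and 59.5 and 22.2 CPM in Matrigel. All 3 were more than 2-fold higher than in other COL1A2 cells in GelNB-CH, and COL6A3 and FAP were in Matrigel too. POSTN, periostin, had opposite signs in the libraries, a difference that was not tested, with 555 CPM in GelNB-CH members and 266 CPM in MMP-negative cells, but 299 and 359 CPM in Matrigel. In cells of 8000 to 16000 UMIs POSTN was still higher in GelNB-CH members than in other COL1A2 cells, with a log2 ratio of 0.62. Over all depths its ratio was 2.84, a value on the linear scale that cannot be set directly against the log2 ratio. COL14A1, a collagen that binds fibrils, was lower, with 66.0 CPM in GelNB-CH members and 129 CPM in MMP-negative cells. Of 17 basement membrane genes, 1 was 2-fold higher than in other COL1A2 cells in either library, which is near the share over all genes.

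**Figure D2:**
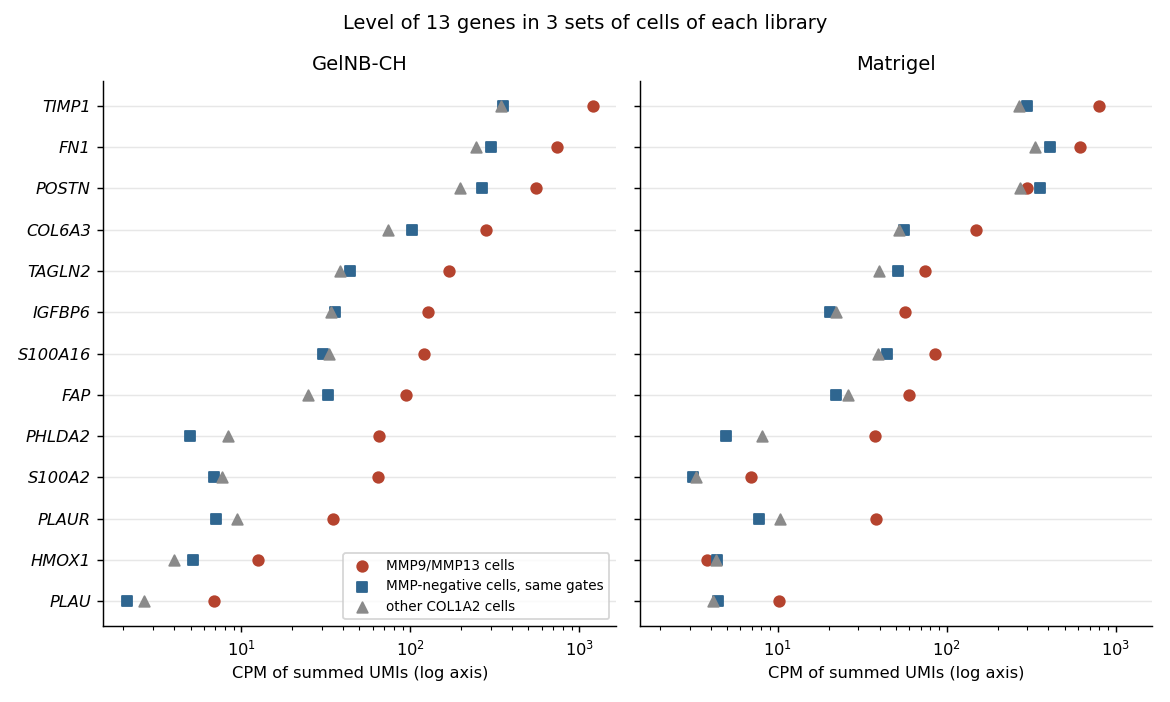
CPM of summed UMIs (log axis) of 13 genes in MMP9/MMP13 cells (circles), MMP-negative cells of the same gates (squares) and other COL1A2 cells (triangles) in GelNB-CH (left) and Matrigel (right). TIMP1, PHLDA2 and PLAUR lie to the right of both references in either library, POSTN does so in GelNB-CH only, and HMOX1 in Matrigel does not.

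Several further genes were raised in many members of both libraries. PHLDA2, an imprinted gene known as a brake on placental growth, had 64.8 CPM in GelNB-CH members and 4.99 CPM in MMP-negative cells, with UMIs in 40 members. In Matrigel it had 37.3 and 4.91 CPM, with UMIs in 26 members. IGFBP6, which binds insulin-like growth factor II, had 127 and 35.7 CPM in GelNB-CH and 56.3 and 20.3 CPM in Matrigel. UPP1, uridine phosphorylase, had 22.9 and 5.13 CPM in GelNB-CH and 27.9 and 7.72 CPM in Matrigel. These 3 were more than 2-fold above MMP-negative cells in both libraries. TAGLN2 and S100A16 passed 3-fold only in GelNB-CH: TAGLN2 had 170 and 43.8 CPM there and 74.7 and 51.3 CPM in Matrigel, and S100A16 had 120 and 30.4 CPM and then 84.8 and 44.0 CPM. SPP1, osteopontin, had 189 CPM in GelNB-CH members and 34.8 CPM in MMP-negative cells, of which 1 member gave 120 of 329 UMIs.

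Other genes with large ratios belonged to few cells. KRT6A, a keratin of stratified epithelium, had 68 UMIs in 2 GelNB-CH members and 41 UMIs in 1 Matrigel member. SPRR1B, KRT7, SFN and KRT17, also epithelial genes, were detected in 5 to 7 GelNB-CH members, and 1 Matrigel member gave all or nearly all UMIs of each. Of 8 keratinocyte genes measured in GelNB-CH, 5 were at least 2-fold above other COL1A2 cells, against 6.37% of all genes. The list's median log2 ratio was -0.48 when only cells of 8000 to 16000 UMIs were used. Cells with at least 10 keratinocyte UMIs numbered 4 of 137 GelNB-CH members and 1 of 78 Matrigel members. The neuropeptide genes NTS and GAL, the protease inhibitor gene PI15 and the cochlear gene OTOR were also concentrated. A single GelNB-CH member gave 43 of 52 NTS UMIs and another 35 of 46 PI15 UMIs, and OTOR had 252 UMIs in 14 members. GAL had a log2 ratio of 2.74, and 0.40 without the cells that carried keratinocyte, glia or neuron transcripts.

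Some genes followed the number of MMP UMIs within the same gates, also at 1 UMI, where cells lie outside the rule. Of 31 genes examined, which were chosen with their values known and leave out the rule's own, 27 in either library were higher in cells with 1 MMP UMI than in cells with none. Between the lowest and the highest of 6 classes 26 were higher at the upper end in GelNB-CH and 25 in Matrigel, but 4 and 3 had no step back, and 17 and 18 had at least 2 steps back. As the genes were chosen with their values known, these counts describe only them. No such share over all genes is given here. In GelNB-CH, TIMP1 stood at 353 CPM in cells with no MMP UMI, 633 CPM in cells with 1, 821 CPM with 2, 1358 CPM with 3 to 4, 1170 CPM with 5 to 9 and 1803 CPM with 10 or more. In Matrigel the values were 300, 420, 699, 700 and 1433 CPM and then 529 CPM at 10 or more, so the order broke in the last 11 cells. HMGA1, a chromatin protein gene, ran from 95.8 to 479 CPM over the same 6 classes in GelNB-CH and from 75.8 to 310 CPM in Matrigel without a step back. TNFRSF12A, the receptor of the cytokine TWEAK, ran from 32.8 to 205 CPM in GelNB-CH and from 37.0 to 131 CPM in Matrigel, with 1 step back in GelNB-CH. Other genes had no such order. OTOR in GelNB-CH was at 41.2, 178, 320, 85.9, 43.7 and 57.1 CPM over the 6 classes, and IER3 was at 70.4 CPM with no MMP UMI, 341 CPM with 5 to 9 and 118 CPM with 10 or more. The glial gene SOX10 ran the other way, with 46.9 CPM in GelNB-CH cells without MMP UMIs and 7.61 CPM in those with 10 or more, and 133 and 31.8 CPM in Matrigel. Depth moved with the classes. In GelNB-CH the medians were 8097 UMIs in the lowest class, 9638 in cells with 1 MMP UMI and 14045 in the highest class. The part of depth was not tested.

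**Figure D3:**
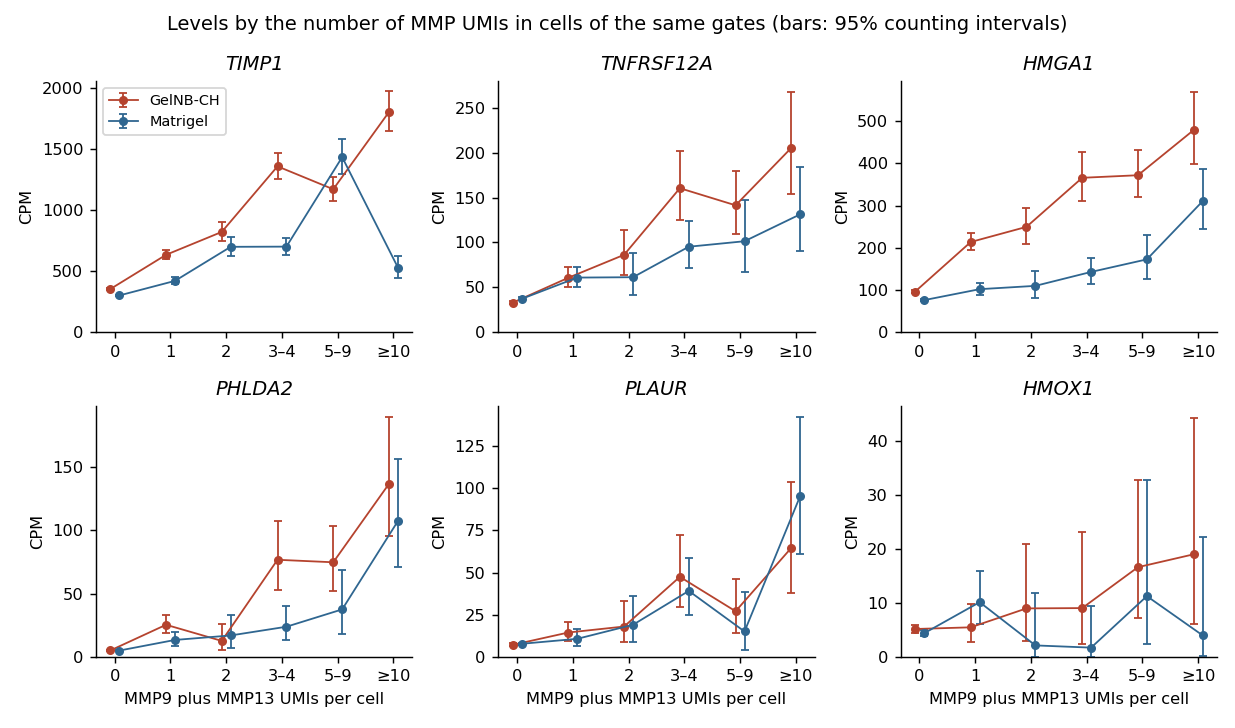
CPM with 95% counting intervals of 6 genes (panels) by MMP9 plus MMP13 UMIs per cell, in cells passing the collagen, OC90 and cartilage limits of GelNB-CH (red) and Matrigel (blue). TIMP1, HMGA1, TNFRSF12A and PHLDA2 are lowest in cells with no MMP UMI in both libraries, and HMOX1 in Matrigel lies between 1.70 and 11.3 CPM with no order.

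Gene groups related to the proposed stress marker HMOX1 were close to the background. Of 27 NRF2 targets measured in GelNB-CH, the antioxidant genes to which HMOX1 belongs, 3 were at least 2-fold higher and 1 lower than in other COL1A2 cells, with a median log2 ratio of 0.15. In Matrigel none of 25 was higher and 2 were lower. Over all genes 6.37% were that much higher and 13.3% lower in GelNB-CH, and 6.38% and 12.1% in Matrigel. TXN, thioredoxin, had 934 CPM in GelNB-CH members and 513 CPM in MMP-negative cells. Of 14 measured genes of a list of iron and haem handling that leaves out HMOX1, none was 2-fold higher than in other COL1A2 cells in either library, and 2 were 2-fold lower in GelNB-CH.

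NF-kB and cytokine genes were higher in Matrigel members in particular, though the difference between libraries was not tested. There 12 of 16 measured were at least 2-fold above other COL1A2 cells and 1 below (background 6.38% and 12.1%), with a median log2 ratio of 1.10. In GelNB-CH 5 of 17 were above and none below (background 6.37% and 13.3%), with a median of 0.58. Of the 27 genes listed, 10 had no UMI in Matrigel members and 8 had none in GelNB-CH members. IL6, IL1A and IL1B were among these in both libraries. RELB, a subunit of the non-canonical pathway, had 72.2 CPM in Matrigel members and 27.5 CPM in MMP-negative cells. In GelNB-CH its ratio over MMP-negative cells was 2.04 (1.53 to 2.68). CCL2, a monocyte chemoattractant, had 79.8 and 50.5 CPM in Matrigel and 64.8 and 33.8 CPM in GelNB-CH. PTGS2, the inducible cyclooxygenase, had 10.9 CPM in GelNB-CH members, from 19 UMIs in 6 cells, and 0.636 CPM in MMP-negative cells. IER3, an early response gene, had 235 and 70.4 CPM in GelNB-CH and 244 and 53.9 CPM in Matrigel.

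Genes of hypoxia and glycolysis were mostly above other COL1A2 cells in GelNB-CH, in 19 of 22 cases. Of the 22, 5 passed 2-fold, against 6.37% of all genes. ENO1, enolase, had 734 CPM in GelNB-CH members and 346 CPM in MMP-negative cells, and 521 and 362 CPM in Matrigel. In Matrigel 14 of 22 were above and 1 passed 2-fold, which is near the 6.38% of all genes there. Among genes of growth arrest, CDKN2B had 13 UMIs in 6 GelNB-CH members and 9 UMIs in 5 Matrigel members, at 7.46 and 5.70 CPM against 0.330 and 0.655 CPM in MMP-negative cells. CDKN1C, another cell cycle inhibitor, had 93.5 CPM in GelNB-CH members and 156 CPM in MMP-negative cells. No gene of the 20 in the cell cycle list was 2-fold higher than in other COL1A2 cells in either library, against 6.37% and 6.38% of all genes. Of the 20, 17 were above other COL1A2 cells in GelNB-CH, with a median log2 ratio of 0.34. In Matrigel 15 were below, with a median of -0.27. Of the 20 there, 1 was at least 2-fold below, against 12.1% of all genes. The difference between libraries was not tested.

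More BMP response genes lay below than above other COL1A2 cells, 12 of 14 in GelNB-CH and 11 of 14 in Matrigel. In GelNB-CH 4 of 14 were at least 2-fold below other COL1A2 cells and none above, with a median log2 ratio of -0.63, and in Matrigel again 4 and none, with a median of -0.44. Over all genes 13.3% were that much lower and 6.37% higher in GelNB-CH, and 12.1% and 6.38% in Matrigel. Against MMP-negative cells 4 were lower and none higher in GelNB-CH, with a median of -0.58, but in Matrigel 3 were lower and 2 higher, with a median of -0.32. ID2, a target of BMP signalling, had 74.6 CPM in GelNB-CH members and 160 CPM in MMP-negative cells, and 70.9 and 89.4 CPM in Matrigel. The TGF-beta and YAP targets divided in GelNB-CH, where 4 of 21 were at least 2-fold above and 4 at least 2-fold below other COL1A2 cells, TGFBI and TAGLN among the higher and CCN2, THBS1 and AMOTL2 among the lower. TGFBI had 124 CPM in GelNB-CH members and 46.1 CPM in MMP-negative cells, and CCN2 had 88.3 and 159 CPM. In Matrigel CCN2 had 201 CPM in members and 165 CPM in MMP-negative cells, so its direction was not shared by that reference.

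**Figure D4:**
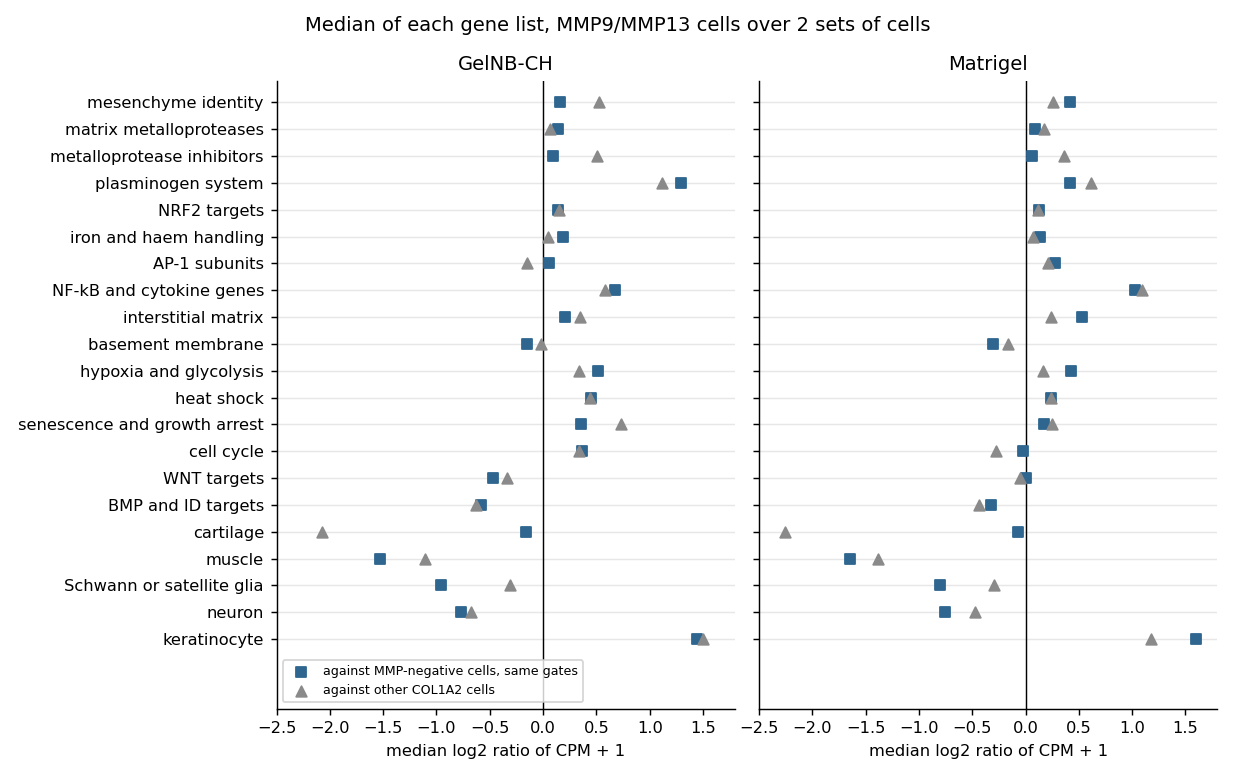
Median log2 ratio of CPM plus 1 (horizontal) of 21 gene lists (rows) in MMP9/MMP13 cells over MMP-negative cells of the same gates (squares) and over other COL1A2 cells (triangles), in GelNB-CH (left) and Matrigel (right). The plasminogen and NF-kB lists lie right of 0 in either library, and the cartilage list lies at -2.07 and -2.26 only against other COL1A2 cells, a reference that holds cartilage-like cells.

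Many of the lower genes describe the gates. MATN1, a cartilage matrix gene, had 4.59 CPM in GelNB-CH members and 149 CPM in other COL1A2 cells, but 4.17 CPM in MMP-negative cells. LMX1A, an otic transcription factor gene, had 1.72 CPM in members, 36.2 CPM in other COL1A2 cells and 2.47 CPM in MMP-negative cells. Of the 554 genes lower than in other COL1A2 cells, 251 were not 2-fold lower than in MMP-negative cells. Those that were lower than both include NRG1, a ligand of ERBB receptors, with 4.02 CPM in GelNB-CH members, 35.1 CPM in MMP-negative and 42.8 CPM in other COL1A2 cells. RSPO3, a WNT agonist, had 7.46 CPM in members and 35.3 CPM in MMP-negative cells. In Matrigel NRG1 had 5.06 CPM in members and 17.7 CPM in MMP-negative cells, and RSPO3 4.43 and 18.6 CPM. Both were therefore over 3-fold lower in members of either library. SOX2, the gene of the sort reporter, had 6.31 CPM in GelNB-CH members and 20.2 CPM in MMP-negative cells (ratio 0.313, 0.156 to 0.562). In Matrigel it had 7.60 and 17.0 CPM (0.446, 0.230 to 0.783).

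Members did not form 1 cluster. When the gated cells of each library were clustered without the 8 rule genes, members were spread over 13 of 16 clusters in GelNB-CH and 13 of 17 in Matrigel. On average 16.2% of the 15 nearest neighbours of a GelNB-CH member were members, against 1.72% for an MMP-negative cell, and the Matrigel values were 13.8% and 1.55%. In 35 GelNB-CH and 25 Matrigel members no neighbour was a member. Members thus had more members among their neighbours than MMP-negative cells had, on average.

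GelNB-CH cluster 14 was the densest. Its 85 cells led by S100A2, SCG2, NPW, PHLDA2, IGFBP6 and VGF held 27 members, 31.8% of the cluster (22.1% to 42.8%). Its members had 2229 CPM of TIMP1, against 1083 CPM in the 51 MMP-negative cells of that cluster, and 110 against 26.1 CPM of PHLDA2. TNFRSF12A was at 231 CPM in members and 150 CPM in MMP-negative cells, and HMGA1 at 747 and 425 CPM. These genes thus differed within the cluster too.

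GelNB-CH cluster 5 held the most members, 36 of its 651 cells, and was led by OTOR, AGT, PLAAT4 and MGP. Its members had 613 CPM of SPP1, against 37.5 CPM in MMP-negative cells of the cluster, and 1048 against 430 CPM of FN1. TIMP1 was at 834 CPM in members and 429 CPM in MMP-negative cells of the cluster, and PHLDA2 at 68.4 and 10.8 CPM. S100A2 was at 2.63 and 1.92 CPM in the same sets. TIMP1 and PHLDA2 were thus higher in members of both clusters, while S100A2 was near 0 CPM in cluster 5. Another 24 members lay in cluster 8 and 8 in cluster 13, which were led by S phase and mitosis genes.

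**Figure D5:**
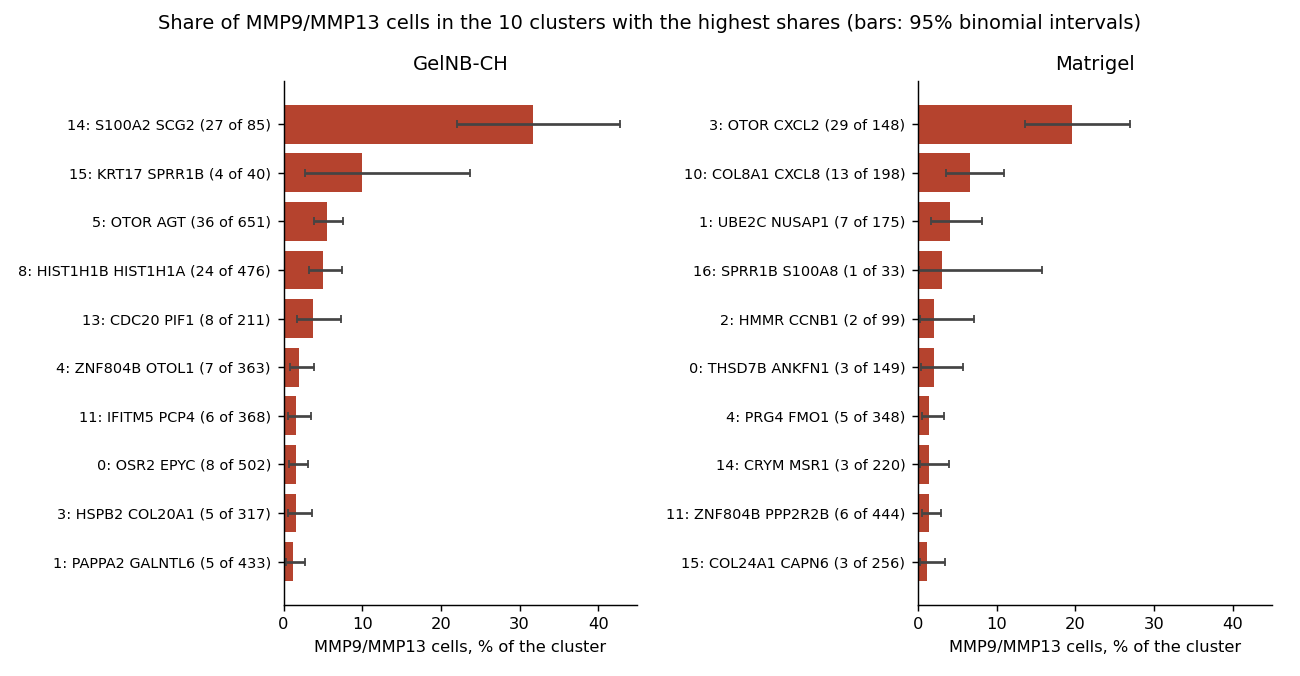
Percent of cells that are MMP9/MMP13 cells (bars, with 95% binomial intervals) in the 10 clusters with the highest shares in GelNB-CH (left) and Matrigel (right), labelled by cluster number, 2 leading genes and members of cells. GelNB-CH cluster 14 reaches 31.8% and Matrigel cluster 3 reaches 19.6%.

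In Matrigel the densest cluster shared OTOR and LAMC3 with GelNB-CH cluster 5 among its leading genes, while its other leading genes differed. Cluster 3, led by OTOR, CXCL2, HSPA6 and NT5E, held 29 members among 148 cells (19.6%, 13.5% to 26.9%), which is 37.2% of all Matrigel members. Its members had 387 CPM of TIMP1, against 209 CPM in the cluster's MMP-negative cells, and 350 against 78.0 CPM of SPP1. COL6A3 hardly differed there, with 276 and 237 CPM. TIMP1 and SPP1 were thus higher in members of this cluster, as in GelNB-CH cluster 5. The glial cluster 10 held 13 members, whose TIMP1 was at 1588 CPM against 680 CPM in its MMP-negative cells and whose PLAUR was at 124 against 24.5 CPM. TIMP1 and PLAUR were therefore higher in members also among cells with glial transcripts.

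Other mesenchymal sets of these organoids took in many of the members. Cells with at least 2 UMIs of OGN plus FOXD1 made up 33.6% of GelNB-CH members (25.7% to 42.1%) and 24.7% of MMP-negative cells, and 50.0% of Matrigel members (38.5% to 61.5%) and 22.1% of MMP-negative cells. Cells with at least 2 UMIs of BARX1 plus SFRP2 made up 32.8% and 40.7% in GelNB-CH and 17.9% and 23.6% in Matrigel. Cells with at least 2 UMIs of PAX3, VIPR2 and CRYM together made up 41.6% of GelNB-CH members and 50.6% of MMP-negative cells. In Matrigel they made up 52.6% of members (40.9% to 64.0%) and 40.7% of MMP-negative cells. PAX3, a neural crest and muscle progenitor factor, was lower in GelNB-CH members than in MMP-negative cells, with a ratio of 0.231 (0.143 to 0.355).

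The 2 hydrogels can be compared only as 1 library each. Between members, 485 genes (4.73% of 10260) were at least 2-fold higher and 600 (5.85%) at least 2-fold lower in GelNB-CH than in Matrigel. Between MMP-negative cells, which are many more, 190 (1.84% of 10330) were higher and 319 (3.09%) lower, and 83 and 160 genes were in both lists. MMP9 had 432 CPM in GelNB-CH members and 391 CPM in Matrigel members, a ratio of 1.11 (0.994 to 1.23), an interval that includes 1. MMP13 had 47.6 and 22.8 CPM, a ratio of 2.09 (1.40 to 3.18), from 83 and 36 UMIs. HMOX1 had 12.6 and 3.80 CPM, a ratio of 3.32 (1.31 to 10.0), from 22 and 6 UMIs.

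Some genes differed between libraries in members and not in MMP-negative cells, although that contrast was not tested. SPOCK1, a secreted proteoglycan gene, had 37.3 CPM in GelNB-CH members and 4.43 CPM in Matrigel members, but 15.9 and 17.8 CPM in MMP-negative cells, and 1 GelNB-CH member gave 34 of its 65 UMIs. CXCL2, a neutrophil chemokine gene, had 1.72 CPM in GelNB-CH members and 27.9 CPM in Matrigel members, and 1.70 and 2.83 CPM in MMP-negative cells, and 1 Matrigel member gave 26 of 44 UMIs. Others differed in both sets of cells. NPW, a neuropeptide gene, had 157 CPM in GelNB-CH members and 17.7 CPM in Matrigel members, and 45.2 and 13.4 CPM in MMP-negative cells. The Schwann or satellite glia list had a median log2 difference of -1.84 between GelNB-CH and Matrigel members and of -1.83 between MMP-negative cells. The higher glial content of the Matrigel library thus reached members and MMP-negative cells alike, and its part in the other differences was not tested.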

How the data were processed

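Per the labels' protocols and the file headers, the deposited values are UMI counts per gene and cell barcode, not normalised. They were made with Cell Ranger, for which the labels' protocols say 4.0.0 while version 7.1.0 stands in the file headers. STAR and GRCh38 are listed in the submitters' processing notes. The members and all 47 gene lists were chosen with earlier results of these data known.

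From the deposited counts, CPM was computed from UMIs summed over a set of cells. Ratios have exact conditional binomial 95% intervals, and shares Clopper-Pearson 95% intervals. A gene was counted as apart at a ratio of at least 2 and a larger CPM of at least 10 (at least 1 for lists, whose log2 ratios add 1 CPM). These counts describe the libraries and call no gene changed. The ratio and interval code was tested on simulated counts. Barcodes were not filtered for doublets. Scrublet in scanpy 1.11.5 called as doublets 8.76% of GelNB-CH and 10.3% of Matrigel members, and 8.38% and 4.62% of MMP-negative cells. Results without these doublets are among the alternatives. Clusters used log counts, 2000 variable genes, 30 components, 15 neighbours and Leiden resolution 1 per library.

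Genes were named by rule: the 24 largest and 12 smallest ratios over other COL1A2 cells in GelNB-CH (larger CPM at least 20, interval excluding 2-fold; without the rule genes and without genes that are ribosomal, mitochondrial, Y-linked or named only by clone), up to 5 high and 3 low members of each list, the rule and label genes and SOX2. Genes named in clusters by their members, in the classes of MMP UMIs and from the library comparison were chosen after their values were seen. Coordinates came from GENCODE v29 (34616 of 36601 identifiers matched). Alternatives changed the cell filter, MMP limit, doublets, reference, depth, scaling, CPM limit and pseudocount. TMM factors came from edgeR 4.0.16 (R 4.3.3). Other software was igraph 0.11.9, scipy 1.17.1 and numpy 2.4.6 for Python 3.11.15, with scikit-learn 1.9.0 and pandas 2.3.3. Results for some named genes are not reported here.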

Additional observations from a re-analysis of the deposited data

Results flagged for a closer look

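Of 366 genes named or listed, 11 had ratios of MMP9/MMP13 cells over other COL1A2 cells whose counting intervals lay on opposite sides of 1 in the 2 libraries. In 3 of them the ratio passed 2-fold in at least 1 library, and none of these differences between libraries was tested. ITGA8, an integrin subunit gene, had a ratio of 0.393 in GelNB-CH (5.16 against 13.1 CPM, 9 UMIs in 7 members) and of 3.23 in Matrigel (42.4 against 13.1 CPM, 67 UMIs in 13 members, of which 1 gave 26). FGF13 had a ratio of 0.0624 in GelNB-CH (1.72 against 27.6 CPM) and of 1.49 in Matrigel (35.4 against 23.8 CPM), where 1 member gave 50 of 56 UMIs. AURKA, a mitotic kinase gene, had a ratio of 1.83 in GelNB-CH (28.1 against 15.4 CPM) and of 0.465 in Matrigel (10.8 against 23.1 CPM, 17 UMIs in 9 members).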

How the results depend on the processing

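No paired analysis was possible because each group has 1 library and no result comes from a test. Depth limits what the sums over 137 and 78 members can show, and single cells carry many large ratios. With at least 1 MMP UMI the share of members was 1.48% in GelNB-CH and 1.70% in Matrigel, with at least 4 it was 0.314% and 0.400%, and after thinning 0.429% and 0.327%. The number of genes at least 2-fold higher in GelNB-CH members than in other COL1A2 cells was 92 with at least 1 MMP UMI and 356 with at least 4 (198 as reported), 314 at a larger CPM of at least 5 and 129 at 20. The number lower was 332 with at least 1 MMP UMI, 949 at a CPM of 5 and 294 at 20 (554 as reported). Between libraries, the genes higher in GelNB-CH members numbered 852 without cells carrying keratinocyte, glia or neuron transcripts, 1556 in cells of 8000 to 16000 UMIs and 260 at a CPM of 20 (485 as reported), and the genes lower 1297 in cells of that depth and 296 at a CPM of 20 (600 as reported). These alternatives between libraries were chosen after seeing the data. So was the removal of cells with at least 10 UMIs of the keratinocyte, glia or neuron list, called marked cells below. The removal of a gene's top cell was chosen in the same way. The cause was not tested.

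List medians in GelNB-CH stayed within the interval of the reported median in 502 of 517 recomputations. A median near 0 could change sign within it, as AP-1 subunits did, from -0.15 to 0.06 against MMP-negative cells. Only the larger medians were called reversed when their sign changed. Against MMP-negative cells the mesenchyme identity median was 0.16, endoplasmic reticulum chaperones 0.12, cartilage -0.16, metallothioneins 0.39 and otic epithelium 0.46, of which the last 2 reversed. Metallothioneins also reversed to 0.030 without doublets and 0.57 at a CPM of 5, otic epithelium to 0.30 without doublets, keratinocyte to -0.48 in cells of 8000 to 16000 UMIs, and neuron to 0.030 without marked cells. The macrophage median, over 3 genes, was 0.82 with at least 1 MMP UMI, 0.80 at that depth, -0.11 without marked cells and 0.19 with a pseudocount of 5, and endothelium was 1.16 without marked cells. For single genes, 2943 of 3620 recomputed ratios stayed within their interval and 32 reversed.

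The log2 ratios that reversed in cells of 8000 to 16000 UMIs were KRT6A -0.036, SPRR1B -0.59, KRT17 -0.90, PLAU -0.66, IL11 -0.59, AREG -0.14, CDKN1A -0.048, KRT8 -0.16 and KRT5 -1.62. Without marked cells they were KRT6A -0.027, PLAU -0.52, AREG -0.080, MATN3 0.013, ACP5 -0.30, KRT8 -0.74, STMN2 0.59 and KRT5 -0.23, and KRT5 was -1.56 without its top cell. Against MMP-negative cells they were MATN1 0.11, CLDN3 0.33, ROCR 0.32, FMOD 0.16, MATN3 0.31, ESRP1 0.12, FBXO2 0.18 and EPCAM 1.92, and EPCAM was 0.73 without doublets. With at least 4 MMP UMIs they were OTOR -0.030, CXCL1 -0.33 and ACP5 -0.57, and with at least 1 OSCAR 0.032 and PECAM1 0.14.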

Other observations

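Members with MMP13 but no MMP9, 6 in GelNB-CH and 5 in Matrigel, had no OTOR UMI in either library and FAP at 205 CPM in the GelNB-CH cells, against 85.4 CPM in members with MMP9 alone, and at 183 against 49.9 CPM in the Matrigel cells. The 19 GelNB-CH members with both enzymes had 2142 CPM of TIMP1, against 1018 CPM in the 112 members with MMP9 alone. These sums rest on few cells and 1 library each.

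Melanocyte and muscle genes were lower in GelNB-CH members. Of 7 melanocyte genes measured, 5 were at least 2-fold below other COL1A2 cells, with a median log2 ratio of -1.27, and in Matrigel 1 of 6 was, with a median of -0.19. Of the muscle genes, 5 of 7 in GelNB-CH and 3 of 5 in Matrigel were at least 2-fold lower, against 13.3% and 12.1% of all genes. These levels were low, with muscle sums of 16.6 CPM in GelNB-CH members and 45.5 CPM in other COL1A2 cells, and 5.06 and 22.2 CPM in Matrigel. Single cells can carry such sums, since 1 MMP-negative cell had 606 muscle UMIs in GelNB-CH and 1 had 933 in Matrigel. DKK2, a secreted WNT modulator, was higher in members of both libraries, with ratios over MMP-negative cells of 2.29 (1.54 to 3.30) for GelNB-CH and 5.19 (3.65 to 7.22) for Matrigel.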
